A study of Rattus norvegicus with 28 samples.

Results

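The groups described are rats given ketanserin at 3 mg/kg followed by psilocybin at 3 mg/kg, and rats given the vehicles of both drugs. They were chosen by their treatment labels (KET3_PSILO3 and VEH_VEH), and they hold 4 and 4 of the 28 prefrontal cortex libraries of the series, which fall into 7 groups of 4. All animals were adult males of the outbred Sprague-Dawley stock, aged 8 weeks on arrival. The combination group had ketanserin in 5% Tween-80 and then psilocybin in saline, and the vehicle group had 5% Tween-80 and then saline, all as intraperitoneal injections. Tissue was taken 24 h later, poly-A RNA was sequenced as strand-marked libraries, and reads were counted per gene. Each library is 1 biological replicate per the labels, and replicate numbers are names only.

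Psilocybin is dephosphorylated in the body to psilocin, an agonist at several serotonin receptors. Its hallucinogenic effects run largely through the serotonin 2A receptor, a Gq-coupled receptor that is dense on pyramidal neurons of the cortex. Ketanserin is an antagonist of that receptor with affinity for the serotonin 2C receptor, alpha-1 adrenergic receptors, the histamine H1 receptor and the vesicular monoamine transporter. The comparison addresses which transcripts of the cortex differ on the day after both drugs were given together.

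Between all 28 libraries, total counts ran from 12783067 to 18538414. Cortical markers were abundant in the combination and vehicle groups, with Slc17a7, the vesicular glutamate transporter of cortical excitatory neurons, at 2175 to 2699 against 2098 to 2794 CPM (read counts scaled to the library total and its TMM factor). Ttr, which choroid plexus expresses at high level, stayed at 2.84 CPM or less in these 8 libraries.

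Replicate 4 of the combination group lay far from all other libraries. On principal components 1 and 2, which carried 32.7% and 10.2% of the variance, it was at -91.4 and 73.6, against -36.7 to 66.8 and -17.3 to 23.4 in the other 27. Its median correlation with the rest was 0.927, against 0.962 to 0.982. It had the smallest total count and 19602 genes at a count of 0, against 15344 to 16657. It was above every other library in 3785 of the 17404 genes tested and below every other library in 4949.

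In that library short genes were low and long genes high. In the shortest of 10 length bins, of 49 to 731 bases, the median gene was 0.56 log2 units below the median of the 28 libraries, and in the longest, of 5042 to 29464 bases, it was 0.32 above. The other 3 combination libraries were at -0.01, 0.14 and -0.03 in the shortest bin and at 0.04, -0.22 and 0.11 in the longest. The vehicle libraries were at -0.10, 0.15, -0.05 and 0.01 in the shortest and at 0.16, -0.22, 0.20 and -0.02 in the longest. Replicate 2 of the combination group and replicate 2 of the vehicle group thus leaned the other way, with short genes high and long genes low. Across the 17404 tested genes, Spearman's rho of deviation with length was 0.281 in combination replicate 4, inside the range of -0.325 to 0.316 in the other 27 libraries, so the direction of this trend did not set it apart.

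**Figure D1:**
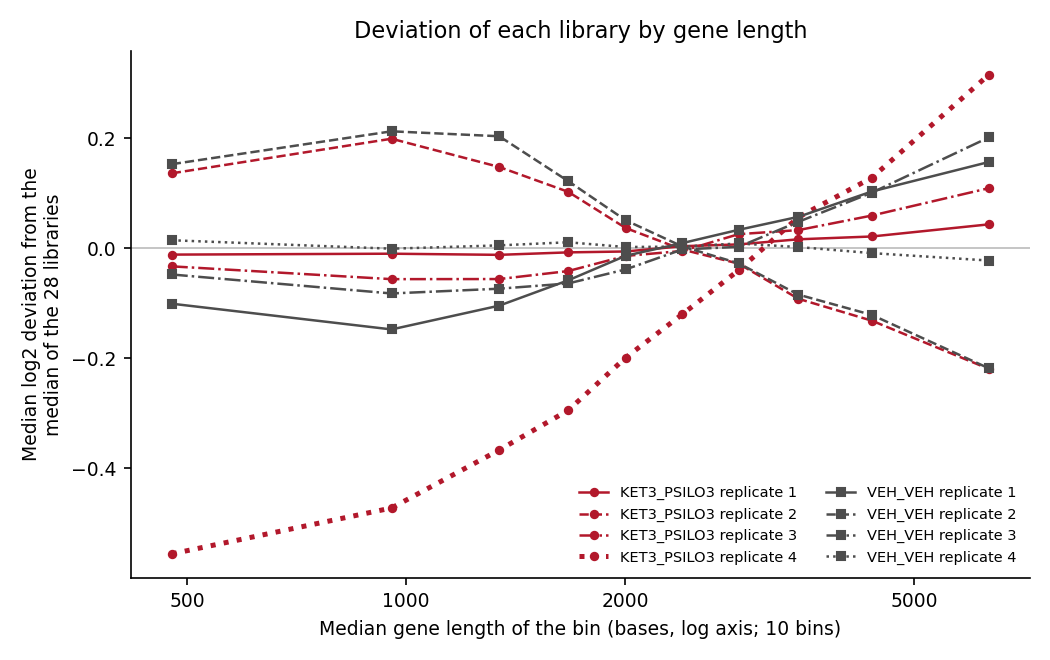
Median log2 deviation of each library from the median of the 28 libraries (vertical) in 10 bins of gene length (horizontal, log axis), for the 4 combination libraries (red circles) and the 4 vehicle libraries (grey squares). Combination replicate 4 runs from -0.56 in the shortest bin to 0.32 in the longest, while replicate 2 of each group falls with length.

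Single transcripts marked the distant library as well. AABR07015081.2, an uncharacterised record on chromosome 14, was at 297 CPM in it and at 9.74 to 49.0 CPM in the other 27 libraries. SNORD113, a small nucleolar RNA, was at 25.8 against 0 to 5.68 CPM, and 7SK, a small nuclear RNA that restrains transcription elongation, at 35.1 against 0 to 5.24 CPM. Psme2, a proteasome activator subunit, was at 0.229 against 15.4 to 30.1 CPM. Ifitm3, an interferon-induced membrane protein, had no read in it, against 5.45 to 17.9 CPM, and the same held for Dnajc17, a J-domain cochaperone, against 7.59 to 19.0 CPM. The comparison with vehicle is therefore given with that library and without it for the counts of genes and for the gene lists, and for single genes where a second value is printed.

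With both drugs, 1 gene was called higher and 0 lower at a Benjamini-Hochberg adjusted p under 0.05 in edgeR's quasi-likelihood test, fitted to all 28 libraries (0.00575% of genes called). The same counts, 1 and 0, came from the fit without replicate 4. At an unadjusted p under 0.05 there were 292 higher genes (1.68%) and 252 lower genes (1.45%) with all libraries, and 143 (0.822%) and 159 (0.914%) without replicate 4. In either direction these were 3.13% of tested genes with all libraries and 1.74% without replicate 4. Both fits held 160 of these genes, which is 160 of 544 with all libraries and 160 of 302 without replicate 4. If no gene differed, a share of 0.05 of evenly spread p-values would lie under 0.05. The shares of 3.13% and 1.74% were smaller than that. DESeq2 also called 1 gene higher and 0 lower. There were 15477 genes with a mean of at least 1 CPM (log2 CPM of 0). Their median half-width of the 95% interval of a log2 fold change was 0.439. That width goes with an unadjusted p of 0.05, and a call at the adjusted threshold took a larger difference. Differences above 0.439 could thus also go uncalled, and smaller ones were mostly not detectable with these libraries.

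Replicate 4 had the highest or lowest value of the 8 libraries in 416 of the 544 genes (76.5%), and in 65.6% of all tested genes. The log2 fold change turned sign without it in 5997 genes (34.5%). Over all tested genes the median log2 fold change was -0.02, and -0.01 without it. The log2 fold change was positive in 46.4% of tested genes, and in 46.8% without it.

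The gene that rose was LOC100911575, annotated as similar to the 60S acidic ribosomal protein P2, a stalk protein of the large ribosomal subunit (ENSRNOG00000037607, chromosome 1, 214428526 to 214430515 on rn6, plus strand). It was at 52.6, 87.3, 51.7 and 46.9 CPM in the combination group, against 2.10, 3.30, 2.98 and 4.12 CPM in vehicle. All combination libraries were above all vehicle libraries, and replicate 4 was the lowest of the 4. Its fitted log2 fold change of 4.25 (SE 0.655, 95% interval 2.90 to 5.60) passed the test (edgeR adjusted p = 0.0183), and it was 4.35 without replicate 4 (edgeR adjusted p = 0.0309). It stayed between 4.01 and 4.41 when each of the 8 libraries was left out. The adjusted p then ranged from 0.0309 to 0.219, and the call was lost without combination replicate 2 (0.0673) and without vehicle replicate 1 (0.219), 2 (0.146), 3 (0.173) or 4 (0.106). It was also lost with no low-count filter (edgeR adjusted p = 0.0849), with voom quality weights (limma adjusted p = 0.723) and with surrogate variables (edgeR adjusted p = 0.146), at log2 fold changes of 4.23 to 4.28.

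In the other 5 groups, LOC100911575 ran from 2.10 to 53.5 CPM, with some values between those of vehicle and of the combination at 3 mg/kg. With both drugs at 1 mg/kg it was at 37.9, 53.5, 4.17 and 35.1 CPM, and with ketanserin alone at 1 mg/kg at 51.1, 51.3, 26.6 and 43.6 CPM. With ketanserin alone at 3 mg/kg it was at 3.52, 2.50, 16.03 and 3.21 CPM. Psilocybin alone at 3 mg/kg gave 5.61, 3.10, 5.55 and 4.15 CPM, and at 1 mg/kg 2.10, 4.12, 11.7 and 3.18 CPM. Libraries above 20 CPM were thus found in the combination at either dose and in ketanserin alone at 1 mg/kg, and they were 11 of the 28. The values nearest to 20 CPM were 16.03 CPM below it and 26.6 CPM above it.

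**Figure D2:**
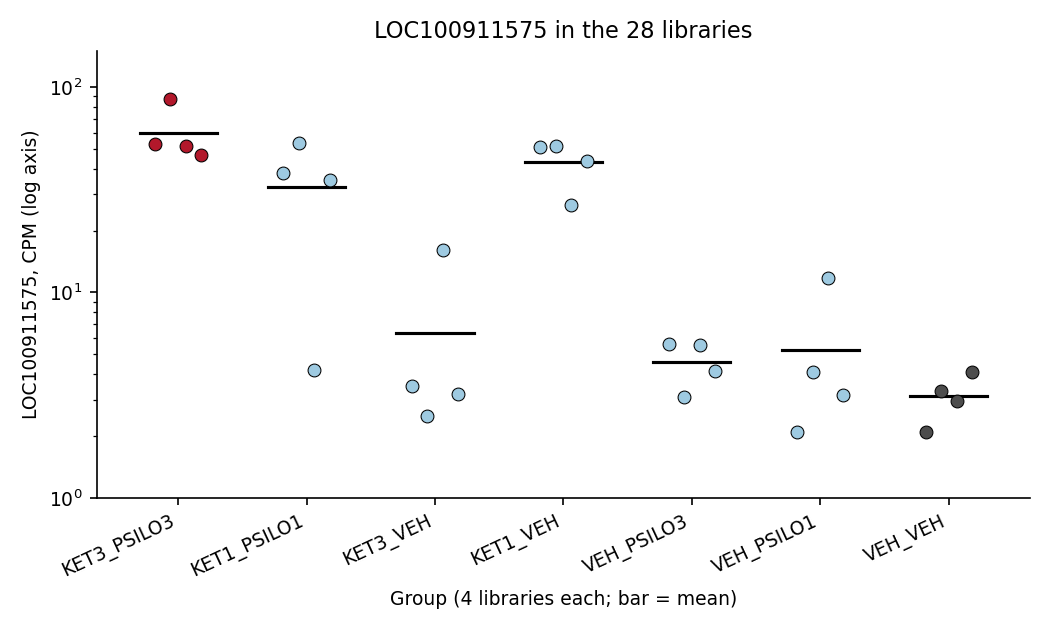
CPM of LOC100911575 (vertical, log axis) in each of the 28 libraries by group (horizontal), with the mean of 4 libraries as a bar. The combination at 3 mg/kg (KET3_PSILO3, red) spans 46.9 to 87.3 CPM and vehicle (VEH_VEH, dark grey) 2.10 to 4.12 CPM.

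The annotation also holds a P2 record of the same length as LOC100911575. Whether reads were shared between such records was not tested, so the level of LOC100911575 is given with that reserve. The sequences of these records were not compared here. Rplp2, the ribosomal protein P2 itself (chromosome 1, 213991620 to 213993609), has the same exonic length of 348 bases and spans 1990 bases like LOC100911575. Its record had no read in 23 of the 28 libraries and at most 9 reads in the others. Another P2-like record, LOC498555 on chromosome 15, was at 27.2, 46.9, 23.9 and 18.4 CPM in the combination group, against 21.98, 36.8, 26.7 and 28.3 CPM in vehicle. The sources used here do not state how reads matching several of these records were divided.

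Dcun1d2, a cofactor that attaches NEDD8 to cullins (ENSRNOG00000019473, chromosome 16, 81593532 to 81614553), had the next smallest p-value among higher genes with a symbol and a mean of at least 1 CPM. It was at 6.22, 2.03, 4.72 and 6.94 CPM in the combination group, against 0.0676, 0.990, 0.248 and 0 CPM in vehicle. The groups did not overlap, which held for 69 higher genes (0.396%) and 129 lower genes (0.741%) with all libraries, and for 203 higher (1.17%) and 219 lower genes (1.26%) without replicate 4. The log2 fold change was 3.89 (SE 0.958) and 3.69 without replicate 4, and the edgeR adjusted p was 0.999. Its neighbour Adprhl1, an ADP-ribosylhydrolase family member that starts shortly downstream on the same strand, was at 5.32, 3.79, 5.21 and 4.57 CPM, against 7.24, 4.09, 7.75 and 4.46 CPM in vehicle (-0.32). Of 23 tested genes of cullin neddylation, 9 had a positive log2 fold change and 14 a negative one, with a median of -0.03, and 0 were called by edgeR (1 at an unadjusted p under 0.05).

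All other genes named from here on had an edgeR adjusted p of 0.999 or 1.00 against vehicle, so their values are given as measured and not as changes. Paqr5, a membrane progestin receptor, was at 4.005, 3.99, 2.98 and 9.45 CPM in the combination group, against 2.91, 1.78, 2.29 and 2.81 CPM in vehicle (log2 fold change 1.05, and 0.58 without replicate 4). The groups did not overlap and replicate 4 was the highest library. Dnah2, an axonemal dynein heavy chain of motile cilia, was at 4.16, 4.26, 4.405 and 2.74 CPM, against 1.83, 2.24, 2.29 and 2.33 CPM in vehicle (0.84 and 0.97), and here replicate 4 was the lowest combination library.

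Rmnd5b, part of an E3 ubiquitin ligase with 2 gene records in the table, fell into separate levels within the combination group. The record on chromosome 10 was at 0.685, 8.72, 7.94 and 0.305 CPM, against 0.338, 0.396, 0.434 and 0.617 CPM in vehicle. Replicates 2 and 3 were high, and replicates 1 and 4 were within or near the vehicle range. Ccdc77, a coiled-coil protein, was at 14.9, 13.8, 6.58 and 2.13 CPM, against 2.23, 6.34, 1.36 and 1.51 CPM in vehicle (1.71). LOC100911713, a protein C10-like record, had a log2 fold change of 4.38 that came from replicate 2 at 71.6 CPM, and without that library it was -0.93. A record named Hsp90aa1, a cytosolic chaperone, was also high in replicate 2, at 16.9 CPM. The other combination libraries were at 2.06 to 4.28 CPM and vehicle at 2.17 to 3.36 CPM. For this record the log2 fold change of 1.27 became 0.27 without replicate 2.

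Among genes lower with both drugs, Kat2b had the smallest p-value. It encodes a histone acetyltransferase also known as PCAF (ENSRNOG00000011871, chromosome 9, 4440982 to 4447715). It was at 2.42, 1.96, 1.55 and 1.52 CPM in the combination group, against 3.45, 4.09, 4.15 and 3.57 CPM in vehicle. The groups did not overlap, and the log2 fold change was -1.03 (SE 0.240), or -0.94 without replicate 4. Kat2b averaged 3.74 CPM with both drugs at 1 mg/kg, 2.88 CPM with ketanserin at 3 mg/kg and 2.43 CPM with psilocybin at 3 mg/kg.

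Nudt4, a diphosphoinositol polyphosphate phosphatase, was at 200.3, 177, 205 and 193 CPM in the combination group, against 226, 227, 242 and 235 CPM in vehicle. Its log2 fold change was -0.26 (SE 0.0818) with and without replicate 4. Gadd45a, a stress-induced growth arrest gene, was at 8.43, 8.11, 7.44 and 7.78 CPM, against 8.86, 12.9, 10.4 and 11.1 CPM in vehicle (-0.44, and -0.43 without replicate 4). In both genes no library of one group reached the range of the other. Yars2, the mitochondrial tyrosyl-tRNA synthetase, was at 15.1, 13.3, 14.2 and 9.60 CPM, against 16.0, 23.8, 17.3 and 16.8 CPM in vehicle (-0.50 and -0.38).

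Several further genes had lower values in all 4 combination libraries than in any vehicle library, as did 129 of all tested genes (0.741%). They were named for small p-values, which favours such separation. Steap2, a metalloreductase, was at 6.42 to 9.53 CPM against 11.2 to 11.8 CPM (-0.49). Tsr2, a factor of small ribosomal subunit maturation, was at 10.2 to 16.7 CPM against 17.2 to 19.1 CPM (-0.48). Sntg2, a syntrophin of the dystrophin complex, was at 1.75 to 4.33 CPM against 4.67 to 6.54 CPM (-0.85, and -0.67 without replicate 4). The coiled-coil gene Ccdc120 was at 10.98 to 18.8 CPM against 20.8 to 24.7 CPM (-0.43, and -0.28 without replicate 4). AABR07018078.1, a record described as Phf11b, was at 0.496 to 1.45 CPM against 1.49 to 2.51 CPM (-1.02).

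Other lower genes overlapped with vehicle or rested on few libraries. Ptk7, a pseudokinase of Wnt signalling, was at 8.75, 9.67, 10.5 and 5.56 CPM, against 14.8, 14.9, 10.2 and 14.0 CPM in vehicle (-0.64 and -0.48). Pla2g4e, a cytosolic phospholipase A2, was at 18.5 to 22.8 CPM against 20.7 to 27.9 CPM (-0.34), and Mex3b, an RNA-binding protein, at 15.9 to 26.2 CPM against 25.1 to 36.7 CPM (-0.44). LOC100912599, an NADH dehydrogenase-like record, was at 0.0762 to 1.01 CPM in the combination group, while vehicle libraries 1 and 2 were at 70.8 and 121 CPM and vehicle libraries 3 and 4 at 0.682 and 0.892 CPM. AABR07040629.1 was high in vehicle library 2 alone, at 21.6 CPM, and its log2 fold change of -1.86 became -0.30 without that library.

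**Figure D3:**
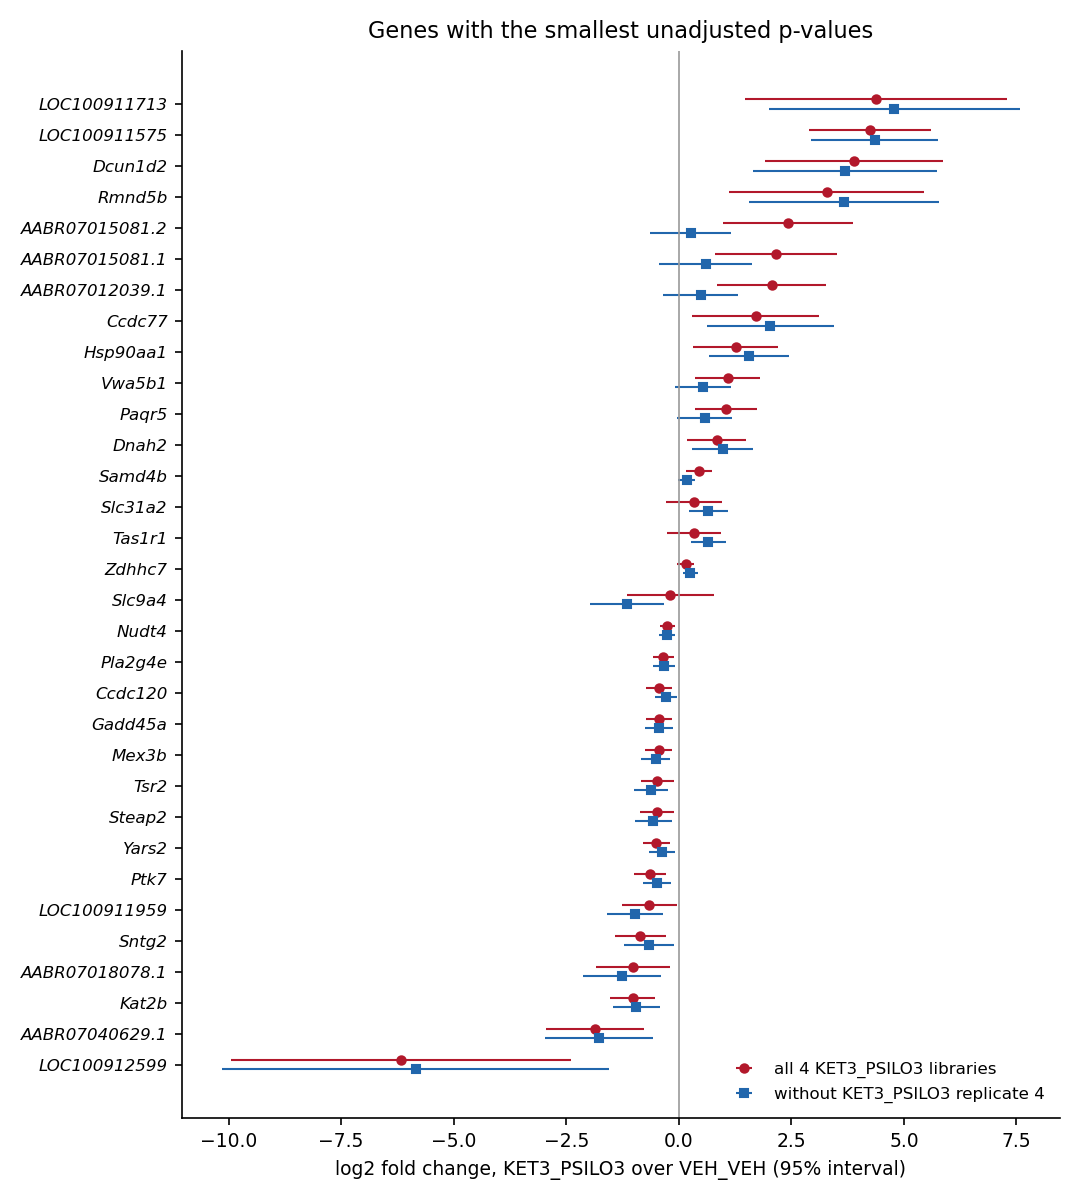
Log2 fold change of the combination over vehicle with its 95% interval (horizontal) for the genes of smallest unadjusted p with or without replicate 4 (vertical), with all 4 combination libraries (red circles) and without replicate 4 (blue squares). Values such as 2.43 and 0.27 for AABR07015081.2 move with that library, and those of LOC100911575 (4.25 and 4.35) and Kat2b (-1.03 and -0.94) do so little.

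Serotonin receptor genes, several of which encode targets of psilocin, showed no called difference. Of 14 receptor genes on the list, 9 passed the filter on low counts. Their log2 fold changes were positive in 6 and negative in 3 with a median of 0.07, and positive in 3 and negative in 6 with a median of -0.07 without replicate 4 (0 called by edgeR, and 0 at an unadjusted p under 0.05). Htr2a, the serotonin 2A receptor (ENSRNOG00000010063, chromosome 15, 56666012 to 56735382), was at 32.4, 25.4, 30.1 and 35.5 CPM in the combination group, against 30.6, 34.9, 38.7 and 32.0 CPM in vehicle. The groups overlapped, and the log2 fold change was -0.14 (95% interval -0.48 to 0.19), or -0.21 without replicate 4.

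Htr2c, the serotonin 2C receptor that psilocin also activates, was at 20.7, 23.0, 10.4 and 11.7 CPM, against 10.3, 20.3, 18.1 and 10.7 CPM in vehicle. Both groups held high and low libraries, and the log2 fold change was 0.14 (95% interval -0.37 to 0.66). Htr1a, an inhibitory receptor and a further target of psilocin, was at 4.85, 3.11, 6.70 and 10.5 CPM, against 6.70, 2.18, 6.38 and 7.55 CPM in vehicle (0.14, and -0.22 without replicate 4). Per length, the mean level of Htr2a was 6.65 against 7.28 FPKM, that of Htr1a 4.94 against 4.44 FPKM and that of Htr2c 3.71 against 3.34 FPKM. Htr3a, the ion channel subunit, had a log2 fold change of -0.25 (-0.07 without replicate 4), Htr5a of 0.43 (0.21), Htr1f of 0.66 (0.10) and Htr1d of -0.33 (-0.51). Htr1b, at 0.07, and Htr6, at 0.01, turned negative without that library, at -0.36 and -0.01. The median of the list was also negative without combination replicate 2 (-0.02) or vehicle replicate 2 (-0.09) or 4 (-0.10).

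For genes that carry the signal of the serotonin 2A receptor, the values depended on replicate 4. Of 26 tested members, 18 had positive log2 fold changes with a median of 0.07, and 10 had positive ones with a median of -0.08 without that library (0 called by edgeR and 0 at an unadjusted p under 0.05). Gnaq, the alpha subunit of Gq, was at 18.9, 11.02, 26.8 and 58.2 CPM in the combination group, against 22.7, 7.59, 37.2 and 12.9 CPM in vehicle. Its log2 fold change of 0.51 became -0.09 without replicate 4. Itpr3, an inositol trisphosphate receptor, was at 10.2, 8.92, 12.8 and 13.6 CPM, against 13.9, 12.4, 11.6 and 16.1 CPM in vehicle (-0.25), and Adrbk1, a G protein-coupled receptor kinase, at 307.7 to 374 CPM against 306 to 369 CPM (0.09).

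Of 9 tested genes for other targets of ketanserin, 7 had positive log2 fold changes with a median of 0.18, and 7 again without replicate 4 with a median of 0.09. The mean log2 deviation of this list from the vehicle mean was 0.20, 0.18, 0.09 and 0.13 in the combination libraries, against 0.01, -0.07, 0.07 and -0.01 in vehicle. It was the only list of the 36 whose values did not overlap between the groups. Over all libraries outside the combination group, those of the other treatments included, the list ran from -0.15 to 0.30. That range includes every combination value. Adra1a, an alpha-1 adrenergic receptor, was at 3.42, 0.946, 4.22 and 9.53 CPM, against 2.16, 0.858, 4.77 and 2.95 CPM in vehicle (0.74, and 0.09 without replicate 4). Hrh1, the histamine H1 receptor, was at 3.95, 3.11, 6.64 and 8.54 CPM, against 5.75, 1.72, 3.53 and 4.53 CPM in vehicle (0.51 and 0.24). Slc18a2, the vesicular monoamine transporter, differed by 0.14, Drd2, the dopamine D2 receptor, by 0.27 and Adra1d by -0.14, and the groups overlapped in all 3 genes.

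Immediate early genes are switched on within minutes by neuronal activity and calcium, and most return to baseline within hours. All 33 members were tested, and 27 had positive log2 fold changes with a median of 0.16, against 46.4% positive and a median of -0.02 over all tested genes. Without replicate 4, 22 of 33 were positive with a median of 0.12. EdgeR called 0 of them. With all libraries, 4 of 33 had an unadjusted p under 0.05 (Arc, Junb, Fosb and Jun), of which Jun was lower. Without replicate 4 it was 3 of 33. Over all tested genes the shares were 3.13% and 1.74%. The synaptic structure list likewise had 4 of 33, and 2 without replicate 4. The mean log2 deviation of the immediate early list overlapped between the groups. It was -0.12, 0.16, 0.38 and 0.24 in the combination libraries, against -0.02, -0.15, 0.24 and -0.07 in vehicle.

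Calcium and cyclic AMP reach many of these genes through CREB, which binds the cyclic AMP response element. The 250 bases before the start of Junb and Nr4a1 are shown as examples. Both had higher means with both drugs and a promoter in RefSeq's table (GRCr8, plus strand, Junb at chr19:40080876-40081125 and Nr4a1 at chr7:134259888-134260137). Capitals mark each core of the element, TGACG or its reverse complement CGTCA.
Junb: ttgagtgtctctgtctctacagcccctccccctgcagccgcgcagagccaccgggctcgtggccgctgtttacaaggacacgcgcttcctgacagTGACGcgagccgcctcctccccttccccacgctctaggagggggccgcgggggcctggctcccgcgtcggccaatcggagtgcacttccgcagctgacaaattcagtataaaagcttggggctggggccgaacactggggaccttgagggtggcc
Nr4a1: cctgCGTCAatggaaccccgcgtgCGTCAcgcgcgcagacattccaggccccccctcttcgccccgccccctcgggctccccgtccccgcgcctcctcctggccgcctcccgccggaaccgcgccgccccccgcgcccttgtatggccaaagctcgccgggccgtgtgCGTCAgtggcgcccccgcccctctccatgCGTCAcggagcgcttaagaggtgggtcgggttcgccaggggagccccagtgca

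Of the 22 members with a promoter entry, 12 held a core on either strand, against 18.2% of all 33469 promoters of that length. The full palindrome TGACGTCA, which contains both cores, was in 3 of the 22 and in 1.59% of all promoters. The CArG box, the site of serum response factor, was in 4 of the 22 and in 1.497% of all. Junb held 1 core and Nr4a1 held 4. Fosb and Egr2 also had higher means with both drugs and a promoter entry. Fosb held 0 cores and 0 CArG boxes, and Egr2 held 1 of each. These matches describe letters in the window and were not tested for binding.

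Arc, a capsid-like regulator of AMPA receptor trafficking at the synapse (ENSRNOG00000043465, chromosome 7, 115907097 to 115910541), was at 33.7, 142, 133 and 111 CPM in the combination group, against 25.03, 46.7, 89.3 and 35.9 CPM in vehicle. Combination libraries 2, 3 and 4 were above every vehicle library, and library 1 was below 3 of the 4. Arc had a log2 fold change of 1.09 (SE 0.447, 95% interval 0.17 to 2.01), which was 1.06 without replicate 4. Mean Arc was 113 CPM with both drugs at 1 mg/kg, 99.5 and 97.8 CPM with ketanserin alone at 1 and 3 mg/kg, 74.9 and 84.3 CPM with psilocybin alone at 1 and 3 mg/kg, and 49.2 CPM in vehicle.

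The AP-1 genes lay in both directions. Junb, whose promoter is shown above, was at 52.8, 113, 104 and 64.3 CPM, against 36.8, 64.0, 82.4 and 48.2 CPM in vehicle (0.53, and 0.63 without replicate 4). Fosb, which yields the long-lived truncated form delta-FosB, was at 7.53, 9.06, 12.5 and 5.79 CPM, against 7.31, 4.89, 6.14 and 5.28 CPM in vehicle (0.56), and without replicate 4 the groups did not overlap (0.71). Fos was at 4.11, 6.49, 17.0 and 15.7 CPM, against 7.44, 5.35, 13.8 and 4.53 CPM in vehicle (0.47 and 0.24). Jun lay the other way, at 93.2, 106, 105 and 79.8 CPM against 131, 127, 106 and 99.9 CPM in vehicle (-0.27 and -0.19), and Jund, the constitutive member, differed by -0.05.

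Nr4a1, an orphan nuclear receptor whose promoter holds 4 cores, was at 55.2, 98.8, 93.3 and 67.3 CPM, against 51.7, 61.3, 72.9 and 63.8 CPM in vehicle (0.33, and 0.40 without replicate 4). Replicates 2 and 3 were above all vehicle libraries, as for Arc and Junb. Egr2, a zinc finger factor, was at 1.90, 3.18, 4.78 and 2.21 CPM, against 2.03, 0.660, 2.79 and 1.23 CPM in vehicle (0.84). Egr1, its abundant relative, was at 127 to 183 CPM against 119 to 150.2 CPM (0.16), Npas4 at 5.06 to 25.3 CPM against 7.53 to 18.7 CPM (-0.13), and Btg2 at 17.6 to 32.2 CPM against 21.7 to 25.3 CPM (0.18). Egr3 (0.01), Fosl2 (0.46), Homer1 (0.26) and Klf6 (0.19) each turned negative without replicate 4, at -0.31, -0.22, -0.37 and -0.14.

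**Figure D4:**
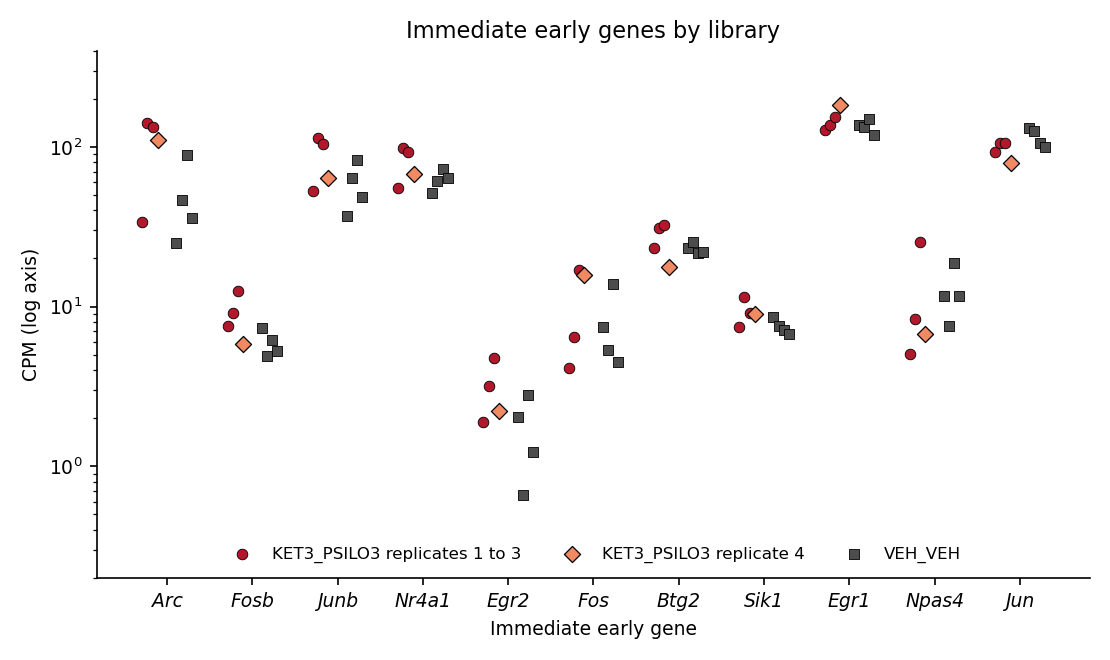
CPM (vertical, log axis) of 11 immediate early genes (horizontal) in each combination library (red circles, with replicate 4 as an orange diamond) and each vehicle library (grey squares). Arc is at 111 to 142 CPM in 3 of the 4 combination libraries and at 89.3 CPM or less in every vehicle library, and all 11 genes shown overlap between the groups when every library is counted.

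Later activity genes and neurotrophins were positive in 12 of 18 members with a median of 0.10, and in 10 with a median of 0.02 without replicate 4 (0 called by edgeR, and 0 at an unadjusted p under 0.05). Bdnf, a growth factor of synapses, was at 24.2, 17.8, 17.6 and 30.3 CPM in the combination group, against 28.6, 21.1, 21.3 and 19.1 CPM in vehicle. The log2 fold change was 0.00 (95% interval -0.40 to 0.39), and -0.18 without replicate 4.

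Glutamate receptors and synaptic genes were higher in the distant library. Of 19 AMPA and NMDA receptor genes, 13 were positive with a median of 0.13, and 10 with a median of 0.00 without it. Grin2b, the NMDA receptor subunit GluN2B, was at 20.7, 26.4, 28.8 and 119 CPM in the combination group, against 17.7, 17.4, 35.6 and 17.4 CPM in vehicle. Replicate 4 alone was outside the vehicle range, and the log2 fold change of 1.14 became 0.20 without it. Cacng2, the AMPA receptor auxiliary subunit stargazin, was at 75.9, 79.6, 78.9 and 170.1 CPM, against 71.3, 75.9, 67.1 and 68.0 CPM in vehicle (0.52 and 0.15).

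Of 33 synaptic structure genes, 24 were positive with a median of 0.12, and 10 with a median of -0.04 without replicate 4. Shank1, a scaffold of the postsynaptic density, was at 1288, 1287, 1352 and 3385 CPM, against 1399.7, 1358, 1202 and 1262 CPM in vehicle. Its log2 fold change of 0.49 became 0.00 without that library. C1ql2, a secreted synaptic organiser, was at 2.85, 3.18, 1.80 and 3.35 CPM, against 4.46, 5.35, 5.14 and 6.17 CPM in vehicle (-0.92, and -1.02 without replicate 4). The C1ql2 groups did not overlap, and its mean was 2.21 CPM with both drugs at 1 mg/kg, 2.95 CPM with ketanserin at 3 mg/kg and 4.24 CPM with psilocybin at 3 mg/kg.

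Inhibitory transmission showed the same dependence on the distant library. Of 20 GABA signalling genes, 12 were positive with a median of 0.04, and 4 with a median of -0.15 without it. Without vehicle replicate 2 the median was -0.10. Gabrb1, a GABA-A receptor subunit, was at 6.59, 11.2, 7.32 and 32.1 CPM, against 5.61, 10.3, 9.92 and 4.94 CPM in vehicle (0.89 and 0.12). Slc32a1, the vesicular GABA transporter, was at 83.2 to 117 CPM against 103 to 149 CPM (-0.24 and -0.15). Potassium channel genes were positive in 25 of 34 with a median of 0.06, and in 9 with a median of -0.11 without replicate 4. Kcnq3, a subunit of the M-current, was at 6.69 to 14.2 CPM in combination libraries 1 to 3 and at 49.3 CPM in replicate 4, against 6.40 to 23.5 CPM in vehicle (0.73 and -0.13).

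Among markers of neuron subtypes, the deep layer list had the largest median. Of 14 deep layer genes, 11 were positive with a median of 0.21, and 10 with a median of 0.24 without replicate 4. Replicate 2 was the high library here, and without it 6 were positive with a median of -0.02. The list's mean log2 deviation was 0.03, 0.73, -0.20 and -0.01 in the combination libraries, against -0.12, 0.38, -0.06 and -0.20 in vehicle. Ntsr1, a neurotensin receptor that marks corticothalamic neurons of layer 6, was at 2.27, 11.9, 1.05 and 2.13 CPM, against 1.22, 3.43, 1.67 and 0.960 CPM in vehicle, and its log2 fold change of 1.24 became -0.0039 without combination replicate 2. Foxp2, a transcription factor of the same layer, was at 9.48, 18.3, 5.71 and 21.8 CPM, against 4.60, 11.9, 7.93 and 6.65 CPM in vehicle (0.82 and 0.51).

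Upper layer markers were positive in 7 of 12 (median 0.07, -0.10 without replicate 4 and -0.11 without vehicle replicate 2), general cortical excitatory markers in 5 of 11 (-0.03 and -0.07), and interneuron markers in 7 of 16 (-0.04 and -0.05). Pvalb, of fast-spiking interneurons, was at 51.1 to 97.0 CPM against 61.6 to 115 CPM, and Sst, of somatostatin interneurons, at 134 to 519 CPM against 319 to 533 CPM. Replicate 4 was the lowest library for both. Striatal markers, which a dissection could include, were positive in 8 of 12 with a median of 0.19 and 0.17, and their summed level was 394 to 560 CPM against 423 to 534 CPM. Their part in the other results was not tested.

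Of 21 myelin and mature oligodendrocyte genes, 20 had negative log2 fold changes with a median of -0.23, and 21 had them with the same median without replicate 4. Without vehicle replicate 2 only 9 of the 21 were negative, with a median of 0.01. Over all tested genes, 53.6% were negative, and 53.2% without replicate 4. EdgeR called 0 of them and 0 had an unadjusted p under 0.05 with all libraries. The members' summed level was 3825, 6681, 4604 and 4609 CPM in the combination libraries, against 3508, 9400.2, 4668 and 6256 CPM in vehicle. The groups overlapped, and vehicle library 2 was the highest of the 8. In bulk tissue, fewer cells of a type and less RNA per cell cannot be told apart.

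The values of single myelin genes overlapped between the groups. Mbp, the myelin basic protein, was at 1644 to 3355 CPM against 1474 to 4790 CPM (-0.31). Hapln2, a link protein of nodes of Ranvier, was at 19.4, 40.4, 22.9 and 17.2 CPM, against 16.8, 55.3, 26.5 and 40.2 CPM in vehicle (-0.48). Cldn11, the tight junction protein of myelin, had a log2 fold change of -0.39 and Aspa, aspartoacylase, of -0.35, and without vehicle library 2 these were the smallest of their leave-one-out values, at -0.09 and -0.10. Oligodendrocyte precursor markers were positive in 2 of 9 (median -0.05, and -0.17 without replicate 4).

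Astrocyte markers had a median of -0.01, with 7 of 16 positive, and -0.09 without replicate 4. Gfap, the intermediate filament that rises in reactive astrocytes, was at 424, 473, 392 and 577 CPM, against 449, 475, 359.6 and 406 CPM in vehicle (0.14 and 0.02). Microglia markers were positive in 4 of 18 (median -0.13, and -0.06 without replicate 4). Csf1r, the receptor that microglia need to survive, was at 66.4 to 83.7 CPM against 78.7 to 85.6 CPM (-0.14). P2ry12, another microglia marker, lay the other way, at 8.11 to 15.1 CPM against 5.81 to 12.8 CPM (0.34 and 0.26). Cx3cr1, a further one, was at 5.81 to 12.7 CPM against 4.29 to 14.1 CPM (-0.04 and -0.21). Meninges and fibroblast markers had a median of -0.24 with 4 of 16 positive, and -0.18 without replicate 4, and their summed level was 692 to 1391 CPM against 1024 to 1327 CPM.

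Blood genes were positive in 7 of 10 with a median of 0.25, and in 8 with a median of 0.29 without replicate 4. Their summed level was 2048, 1546, 1764 and 1728 CPM in the combination libraries, against 1222, 2468, 985 and 1099 CPM in vehicle. Vehicle library 2 was the highest of the 8 and the other vehicle libraries the lowest. Hba2, an alpha globin, was at 407, 317, 389 and 447 CPM, against 248.98, 493, 184 and 213 CPM in vehicle (0.45). Residual blood in the tissue was not measured otherwise, and its part in other results was not tested.

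Medians of ribosomal and respiratory genes, which are short, turned sign without combination replicate 4 and also without vehicle replicate 2. Of 80 tested cytosolic ribosomal protein genes, 25 were positive with a median of -0.06, and 67 with a median of 0.05 without replicate 4. Of 72 mitochondrial ribosomal protein genes, 16 were positive (-0.10), and 47 (0.04) without it. Of 80 nuclear genes of the respiratory chain, 10 were positive (-0.12), and 63 (0.05) without it. Without vehicle replicate 2 the medians were 0.15 for cytosolic ribosomal, 0.06 for mitochondrial ribosomal and 0.05 for respiratory chain genes. The median length of the respiratory chain genes was 739.5 bases and that of the cytosolic ribosomal genes 599 bases. Mean log2 deviations of the respiratory chain list were -0.09, 0.37, -0.10 and -0.75 in the combination libraries, against -0.30, 0.42, -0.13 and 0.01 in vehicle.

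Within the ribosomal list, single records were at several levels. A record of Rpl35a on chromosome 12, 1 of 5 records with that symbol, was at 7.06, 0, 5.65 and 0 CPM in the combination libraries and had no read in vehicle. A pair of Rpl7a records on chromosome 3 lay in opposite directions (0.64 and -1.27). Such copies can share sequence, so their counts are uncertain. A record named Ndufa1, a complex I subunit, was at 14.7 CPM in combination replicate 3 and at 0.0762 to 0.660 CPM in the other 7 libraries.

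The mitochondrial genome was positive in 6 of 11 genes with a median of 0.01, and in 10 with a median of 0.08 without replicate 4. The median was -0.20 without combination replicate 2. Mt-nd4, a complex I subunit it encodes, was at 718, 835, 708 and 910.5 CPM, against 481, 422, 648 and 553 CPM in vehicle, and the groups did not overlap (0.59, and 0.52 without replicate 4). Mt-nd5 was at 2489 to 2545 CPM in combination replicates 1 to 3 and at 4717 CPM in replicate 4, against 2254 to 2808 CPM in vehicle (0.33 and 0.04).

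Neuropeptide genes were positive in 3 of 16 with a median of -0.25, and in 7 with a median of -0.03 without replicate 4. Adcyap1, which encodes the peptide PACAP, was at 35.5, 37.4, 30.5 and 37.6 CPM, against 41.5, 45.7, 43.2 and 38.6 CPM in vehicle (-0.26 and -0.29), and its groups did not overlap. Penk, proenkephalin, was at 65.5, 101, 57.1 and 47.6 CPM, against 77.0, 82.8, 59.4 and 102 CPM in vehicle (-0.24 and -0.11).

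Circadian clock genes were positive in 13 of 19 (median 0.06, and -0.07 without replicate 4). Arntl, the core activator BMAL1, was at 37.99, 39.3, 37.0 and 38.6 CPM, against 50.4, 40.3, 45.7 and 48.8 CPM in vehicle (-0.27 and -0.28), with every combination library below every vehicle library. Glucocorticoid response genes were positive in 10 of 18 (0.06, and -0.08 without replicate 4), with Sgk1, a kinase that corticosterone induces, at 22.9 to 33.6 CPM against 30.9 to 40.8 CPM (-0.32 and -0.23). Endoplasmic reticulum chaperones had a median of 0.00 and 0.01, although Herpud1, a factor of protein degradation at that membrane, was at 40.8 to 43.2 CPM against 44.0 to 64.6 CPM (-0.29).

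Heat shock genes were positive in 4 of 16 (median -0.05 with and without replicate 4). A record of Hspa8, the constitutive Hsp70 chaperone, was at 7.90, 7.44, 8.25 and 8.00 CPM against 11.3, 10.5, 9.73 and 9.74 CPM in vehicle (-0.38). Interferon and innate immune genes were positive in 12 of 26 (-0.11), and in 14 (0.11) without replicate 4 and 15 (0.06) without vehicle replicate 2. Rsad2, the antiviral protein viperin, was at 2.42, 1.08, 2.85 and 8.39 CPM, against 2.71, 0.924, 1.92 and 1.37 CPM in vehicle (1.08 and 0.30). Perineuronal net and matrix genes were positive in 6 of 16 (-0.09, and -0.18 without replicate 4), with Hapln4, a link protein of the nets, at 127 to 242 CPM against 194 to 303 CPM (-0.40 and -0.37).

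**Figure D5:**
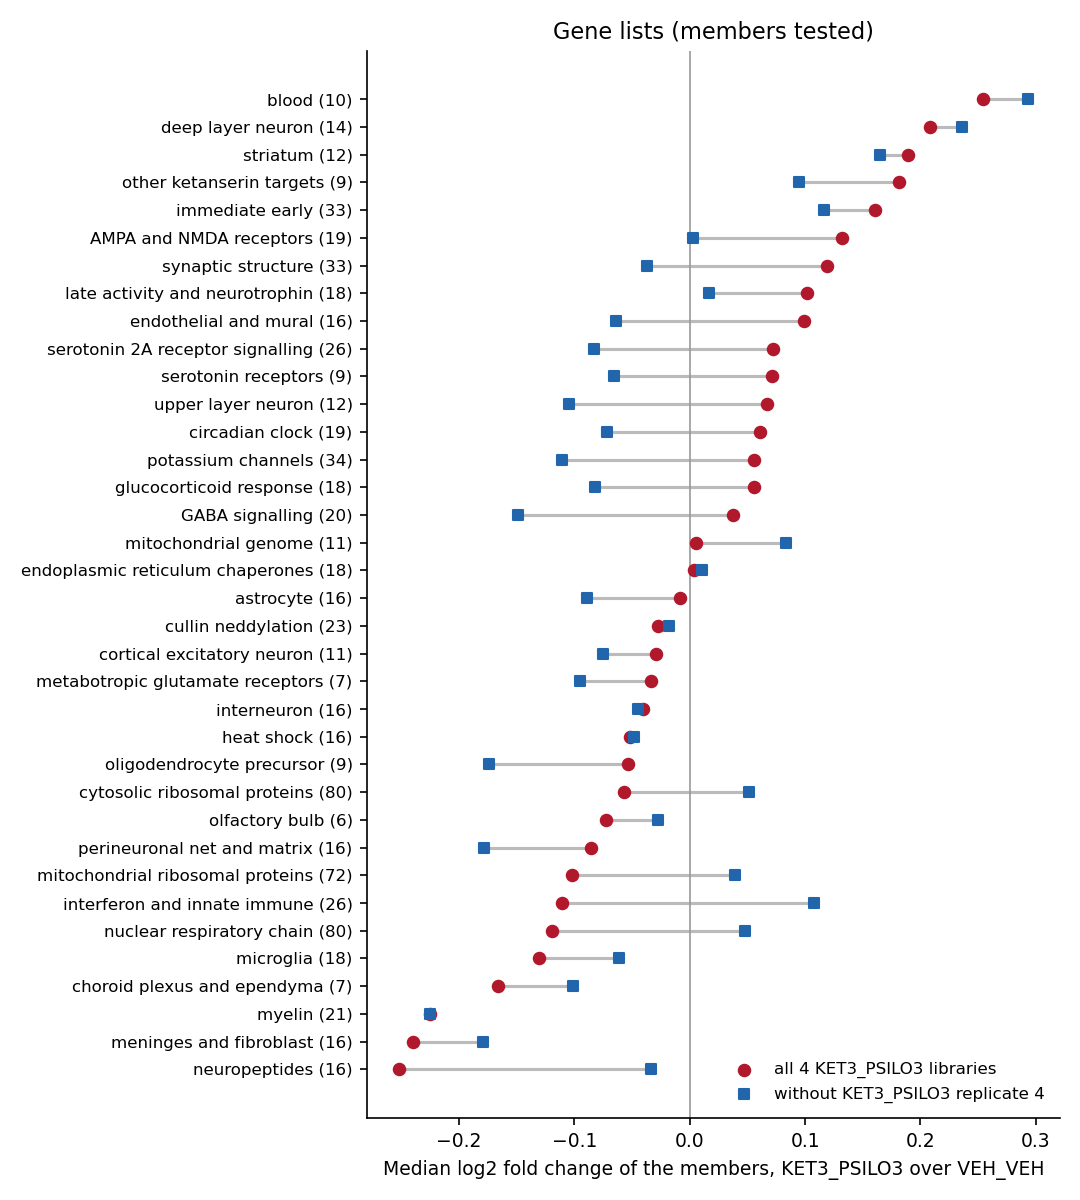
Median log2 fold change of the combination over vehicle (horizontal) for each of 36 gene lists with the number of members tested (vertical), with all 4 combination libraries (red circles) and without replicate 4 (blue squares). The median turns sign in 13 of the 36 lists, and that of the myelin list is -0.23 in both.

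Across the 36 lists, 760 distinct records were tested and 0 were called by edgeR. Replicate 4 had the highest mean deviation of the 8 libraries in 12 lists and the lowest in another 12. The endothelial and mural list turned with it (10 of 16 positive with a median of 0.10, and -0.06 without it). The metabotropic glutamate receptor list (3 of 7, -0.03 and -0.09), the choroid plexus and ependyma list (2 of 7, -0.17 and -0.10) and the olfactory bulb list (3 of 6, -0.07 and -0.03) kept their sign without replicate 4. The metabotropic list turned positive without combination replicate 2 (0.05), vehicle replicate 1 (0.03) or vehicle replicate 3 (0.02). When each of the 8 libraries was left out in turn, the median turned sign in 22 of the 36 lists, in 13 lists without combination replicate 4, in 9 without vehicle replicate 2 and in 7 without combination replicate 2. It kept its sign in the other 14, among them the immediate early, ketanserin target, blood and microglia lists.

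The combination was also set against each drug alone at 3 mg/kg and against the combination at 1 mg/kg, in the same fit. Against psilocybin alone edgeR called 0 genes, with 999 (5.74%) at an unadjusted p under 0.05 and 370 (2.13%) without replicate 4. Against ketanserin alone it called 0, with 594 (3.41%) and 487 (2.80%). Against the combination at 1 mg/kg it called 0, with 576 (3.31%) and 342 (1.97%). DESeq2 called 1 gene, LOC100911575, against each drug alone and 0 against the lower dose. These comparisons share the 4 combination libraries with each other.

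LOC100911575, the 1 gene called against vehicle, and some uncalled genes named above were also set against these groups. LOC100911575 had a log2 fold change of 3.70 against psilocybin alone (edgeR adjusted p = 0.0896), 3.25 against ketanserin alone (edgeR adjusted p = 0.375) and 0.87 against the lower-dose combination (edgeR adjusted p = 1.00). Dcun1d2 had 0.63, 1.09 and 0.57 in the same order, with means of 3.20 CPM with psilocybin alone, 2.34 CPM with ketanserin alone and 3.34 CPM in the lower-dose combination. Arc had 0.31, 0.10 and -0.10, and Kat2b had -0.38, -0.62 and -0.996. Mt-nd4 had 0.90, 0.82 and 0.59, and Htr2a had -0.15, -0.15 and -0.07. None of these passed the edgeR test.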

How the data were processed

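Poly-A RNA of prefrontal cortex was sequenced as directional dUTP libraries, per the labels' protocols. The submitters' processing notes name HISAT2 2.0.5, StringTie 1.3.3b, featureCounts 1.5.0-p3 and build rn6, without roles, and do not state how strand was set in featureCounts. The authors deposited raw counts per gene for 36387 records and FPKM values, which were used only to compare levels between genes. Reads of overlapping or near-identical genes may have been divided or lost. The 3842 unnamed transcripts were kept in totals and tests.

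Counts of all 28 libraries were fitted in R 4.3.3 with edgeR 4.0.16 (filterByExpr, which left 17404 genes, TMM scaling, 1 coefficient per group, 21 residual degrees of freedom, robust quasi-likelihood F test, two-sided, Benjamini-Hochberg adjustment, calls at an adjusted p under 0.05). The script was tested on simulated data. Alternatives were DESeq2 1.42.0, RLE factors, no filter, a minimum of 1 CPM in 4 libraries, a fit of only the groups compared, limma 3.58.1 voom with quality weights, 2 surrogate variables (sva 3.50.0) and leaving out each of the 8 libraries.

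Named genes were the called ones, the 10 higher and 10 lower with the smallest unadjusted p (symbol, mean log2 CPM of at least 0) with and without combination replicate 4, up to 3 members per list by p, a fixed set (Htr2a, Htr2c, Htr1a, Fos, Arc, Bdnf, Dcun1d2, Adprhl1) and the 10 records highest and lowest in that replicate. Further members of the receptor, ketanserin target and immediate early lists, and Mbp, Slc17a7 and other markers given by range, were named after their values were seen. A few genes that the rule picks are not reported here. List values are means of log2(CPM + 0.5) deviations from the vehicle mean of each gene, and the length bins use deviations from its median over the 28 libraries. The groups and gene lists were chosen with earlier results of these data known. Intervals cover the spread between libraries as well as counting error. Promoters are from RefSeq (GRCr8).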

Additional observations from a re-analysis of the deposited data

Results flagged for a closer look

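Single values lay far from the other 3 of their group in 42 of 432 sets of 4 values examined. The rule flags about 1 in 20 sets of independent, normally spread values. These sets share the same libraries and many of their genes were picked by p, so the rates cannot be compared. The distant value was that of combination replicate 4 in 18 sets and of combination replicate 2 in 8 sets, and no explanation was weighed.

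In combination replicate 4, the values were higher than in the other 3 combination libraries for AABR07012039.1 (19.7 CPM against 1.303 to 3.11), AABR07015081.1 (65.1 against 3.92 to 9.99), AABR07015081.2 (297 against 15.2 to 27.2), Paqr5 (9.45 against 2.98 to 4.005) and Samd4b (143 against 72.8 to 82.5). The same held for Cacng2 (170.1 CPM against 75.9 to 79.6), Grin2b (119 against 20.7 to 28.8), Shank1 (3385 against 1287 to 1352), Htr1b (5.56 against 2.16 to 2.57), Rora (6.10 against 0.203 to 0.948), Klf6 (26.6 against 11.8 to 14.0), Cul2 (66.3 against 50.8 to 53.3), Slc9a4 (4.34 against 0.811 to 0.993), Mt-nd4l (1355 against 719.9 to 796) and Mt-nd5 (4717 against 2489 to 2545). It was the low library for Ccdc120 (10.98 CPM against 18.5 to 18.8), Dnah2 (2.74 against 4.16 to 4.405) and the mean log2 deviation of the olfactory bulb list (-0.45 against 0.04 to 0.12).

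In combination replicate 2, the values were higher than in the other 3 for LOC100911575 (87.3 CPM against 46.9 to 52.6), LOC100911713 (71.6 against 0.229 to 0.807), Hsp90aa1 (16.9 against 2.06 to 4.28), Ntsr1 (11.9 against 1.05 to 2.27), Aspa (10.7 against 9.22 to 9.27), Olig1 (151 against 99.6 to 106), Jund (432 against 285 to 308) and the mean log2 deviation of the mitochondrial genome (0.40 against -0.04 to 0.01). Combination replicate 3 was high for Ndufa1 (14.7 CPM against 0.0762 to 0.406), Slc17a6 (11.8 against 6.48 to 7.06) and Npas4 (25.3 against 5.06 to 8.31), and combination replicate 1 was low for Plk2 (179.5 against 204 to 208).

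In vehicle, replicate 2 was high for Yars2 (23.8 CPM against 16.0 to 17.3 in the other 3), AABR07040629.1 (21.6 against 2.10 to 2.68), Adrbk1 (369 against 306 to 308), Cartpt (14.8 against 0.812 to 1.18) and Doc2g (7.46 against 5.70 to 5.90), and low for Trib1 (0.660 against 5.68 to 6.69). Vehicle replicate 3 was high for Grin2b (35.6 CPM against 17.4 to 17.7), Grm3 (47.9 against 24.4 to 27.4) and Htr1b (5.64 against 1.85 to 2.37). Vehicle replicate 4 was high for Lamp5 (343 CPM against 233 to 242) and low for the olfactory bulb list (-0.15 against 0.04 to 0.07), and vehicle replicate 1 was low for Gadd45b (6.22 CPM against 9.36 to 9.88).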

How the results depend on the processing

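No paired analysis was possible because the labels number no replicates, so the numbers only name libraries. The count of 1 gene called higher became 0 with no low-count filter, with voom quality weights and with surrogate variables, and it was 0 to 1 when each of the 8 libraries was left out. The fit of only these groups without combination replicate 4, chosen after seeing the data, called 2 higher genes (LOC100911575 and LOC103694902). DESeq2 without that library, also chosen after seeing the data, called 1 gene lower (AABR07066510.1). Against psilocybin alone at 3 mg/kg and against ketanserin alone at 3 mg/kg, DESeq2 and the fit of only the groups compared each called 1 gene, and the edgeR fit of all groups 0. The other alternatives kept their counts. For LOC100911575 the log2 fold change was 4.01 to 4.41 over all 17 alternatives. Of 180 gene records named or listed, 40 turned sign in some alternative, and none of these 40 was called by edgeR with all libraries. The cause was not tested. With DESeq2, values of turned sign were Bdnf 0.0100. With RLE size factors, values of turned sign were Bdnf 0.010 and Adra2a 0.0015. With no low-count filter, values of turned sign were Bdnf 0.0089 and Adra2a 0.0028. With a minimum of 1 CPM in 4 libraries, values of turned sign were Bdnf 0.0035. In a fit of only the groups compared, values of turned sign were Bdnf 0.014 and Adra2a 0.0073. With voom quality weights, values of turned sign were LOC100911713 -0.38, Cartpt 0.44, Gnaq -0.019, Grm3 -0.018, Grm4 0.045, Inhba -0.18, Rarres2 0.00095, Rora -0.59, Adra1d 0.062, Htr1f -0.16, Fos -0.22, Htr1a -0.27, Adra1b -0.064, Csrnp1 -0.12, Dusp1 -0.031, Egr3 -0.24, Fosl2 -0.16, Homer1 -0.15, Htr1b -0.33, Ier5 -0.0038, Jund 0.016, Klf6 -0.18, Nr4a2 -0.054 and Trib1 -0.22. With 2 surrogate variables, values of turned sign were Abcc9 -0.016, Grm3 -0.060, Rora -0.74, Htr1a -0.25, Atf3 -0.15, Egr3 -0.32, Fosl2 -0.14, Homer1 -0.26, Htr1b -0.24, Htr6 -0.033, Jund 0.014 and Klf6 -0.10. With DESeq2 and no combination replicate 4, values of turned sign were Abcc9 -0.066, Gnaq -0.091, Grm3 -0.095, Kcnq3 -0.13, Rora -0.95, Htr1a -0.22, Atf3 -0.35, Egr3 -0.31, Fosl2 -0.22, Homer1 -0.37, Htr1b -0.36, Htr6 -0.011, Klf6 -0.14, Npas4 0.056 and Trib1 -0.048. In a fit of only these groups and no combination replicate 4, values of turned sign were Abcc9 -0.066, Gnaq -0.093, Grm3 -0.095, Kcnq3 -0.13, Rora -0.94, Htr1a -0.22, Atf3 -0.34, Egr3 -0.31, Fosl2 -0.22, Homer1 -0.37, Htr1b -0.36, Htr6 -0.0078, Jund 0.0017, Klf6 -0.14, Npas4 0.055 and Trib1 -0.047. Over the 8 fits that leave out 1 library, the ranges were Abcc9 -0.067 to 0.47, Adra1b -0.21 to 0.18, Adra1d -0.20 to -0.013, Adra2a -0.17 to 0.093, Atf3 -0.34 to 0.34, Bdnf -0.18 to 0.13, Cartpt -1.65 to 0.88, Csrnp1 0.014 to 0.26, Drd2 -0.077 to 0.53, Dusp1 0.010 to 0.27, Dusp5 -0.11 to 0.25, Egr3 -0.31 to 0.25, Fos 0.16 to 0.91, Fosl2 -0.22 to 0.73, Gnaq -0.090 to 1.00, Grm3 -0.095 to 0.46, Grm4 -0.29 to -0.033, Homer1 -0.37 to 0.63, Htr1a -0.22 to 0.37, Htr1b -0.36 to 0.61, Htr1f 0.10 to 1.02, Htr2c -0.062 to 0.34, Htr6 -0.14 to 0.15, Ier5 -0.063 to 0.19, Inhba 0.15 to 2.05, Jund -0.20 to 0.17, Kcnq3 -0.13 to 1.24, Klf4 -0.30 to 0.029, Klf6 -0.14 to 0.32, LOC100911713 -0.93 to 4.79, Ndufa1 -0.87 to 3.66, Npas4 -0.89 to 0.15, Nr4a2 0.0065 to 0.34, Nr4a3 -0.088 to 0.45, Ntsr1 -0.0039 to 1.76, Olig1 -0.43 to 0.0011, Rarres2 -0.27 to 0.012, Rora -0.94 to 1.17, Slc9a4 -1.15 to 0.053 and Trib1 -0.16 to 0.41. Combination replicate 4 had the smallest total count, 12783067 against 13346016 or more in the other 27 libraries. It had 19602 genes at a count of 0, against 16657 or fewer, and the cause was not tested. With 4 libraries a group, the spread between libraries sets the precision.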
